A study of Mus musculus with 11 samples.

Results

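A stretch of mouse chromosome 12 that holds no annotated protein-coding gene carried a long row of non-coding RNA features in the retina, nearly all on the plus strand and closely spaced over its first part. Every one of them had a higher mean in retina without Nrl than in wild-type retina. The stretch was delimited as chromosome 12, 6138000 to 6967000 (mm10), and every feature of the authors' deposited table that overlaps it was taken as a member, on either strand. This gave 88 members of the 36097 features listed. Members were thus chosen by position, but the interval itself was selected on the measured difference between knockout and wild-type levels. All values of the members across the 2 genotypes are therefore given as a description, without a test. Flanks of 500 kb on each side held 6 features before and 3 after the interval. Before the run, the protein-coding gene Klhl29, which encodes a kelch-repeat protein, ended 433 kb before the first base of the first member. After the run, Apob, the gene of the main structural protein of lipoprotein particles, began 1011 kb after the last member. Both genes were taken by name, without a search for the nearest.

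The data are RNA sequencing libraries of whole retina taken at postnatal day 21 from mice of 2 genotypes, wild-type (5 libraries) and Nrl knock-out (6 libraries). The RNA had been depleted of polyadenylated transcripts and was read from one end, with strand, at a read length of 50 bases. The labels number the replicates but name no animals, litters or strain and do not describe the knock-out allele. Any p-value therefore measures the spread between these libraries only. Between 3238184 and 4150460 reads fell in listed features in the wild-type libraries, and between 3374221 and 4876429 in the knockout libraries. Of these, the run took 1.30% to 2.22% in wild-type and 2.81% to 6.56% in knockout libraries. The 1 feature listed over Nrl, MSTRG.28375 on the strand opposite to the gene, was at 33.3 to 55.5 normalised counts in the wild-type libraries. It was at 0 in 5 knockout libraries and at 0.758 in knockout 5, so no library went against its label there. The sources used here do not say which part of Nrl the allele removes.

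Nrl encodes a leucine-zipper transcription factor that turns photoreceptor precursors towards the rod fate. Retinas without it are known to lack rods and to be filled with cone-like photoreceptors. RNA left after removal of polyadenylated transcripts includes non-polyadenylated non-coding RNA, introns and RNA still being made. In such libraries RNA of 1 transcription unit can be listed as a row of neighbouring features on 1 strand. Long intergenic non-coding RNA genes are transcripts without a recognised protein, many of them capped, spliced and polyadenylated like messenger RNAs.

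Of the genes that GENCODE M21 annotates on the plus strand along the run, 2 long non-coding ones are described here. Gm23752 and Gm48608, which the first member also overlaps on that strand, were not examined. Gm32442 spans 177 kb (chromosome 12, 5808195 to 5984958) with 6 transcripts, and Gm48619 spans 104 kb (6699753 to 6803300) with 1 transcript of 3 exons. The first base of the first member, MSTRG.18577, stood at 5808193, 2 bases before the start of Gm32442. The annotated sequence that begins there is shown because the run begins on it. It is the first exon of Gm32442-203 (chromosome 12, 5808195 to 5808350, plus strand, mm10), and capitals mark the stretch from 5808234 that is shared by the first exons of the 4 transcripts annotated from this start.
Gm32442-203, first exon: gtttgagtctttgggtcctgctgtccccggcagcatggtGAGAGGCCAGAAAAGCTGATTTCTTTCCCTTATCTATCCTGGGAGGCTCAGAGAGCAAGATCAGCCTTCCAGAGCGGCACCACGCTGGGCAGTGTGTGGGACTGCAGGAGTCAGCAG

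Members lay beyond each of the 7 annotated 3′ ends of Gm32442 and Gm48619. Of these ends 4 are shown, 1 for each place where their transcripts end. Capitals mark AATAAA, the main polyadenylation signal, which was searched on the transcript strand in the last 50 bases of each transcript. Gm32442-206 ended at 5849563, Gm32442-205 at 5856147 and Gm32442-201 at 5984958, all inside the span of MSTRG.18577. Gm48619-201 ended at 6803300, where no member lay. MSTRG.18669 before that end stopped at 6770532, and the next member, MSTRG.18671, began at 6813433.
Gm32442-206: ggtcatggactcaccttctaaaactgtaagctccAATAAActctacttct
Gm32442-205: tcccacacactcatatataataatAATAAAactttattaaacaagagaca
Gm32442-201: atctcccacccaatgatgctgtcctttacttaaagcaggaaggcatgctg
Gm48619-201: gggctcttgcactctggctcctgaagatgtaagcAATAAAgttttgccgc
The signal began 16 bases from the end in Gm32442-206 and in Gm48619-201 and 26 bases from the end in Gm32442-205, and the last 50 bases of Gm32442-201 held none. Of the 3 transcripts not shown, Gm32442-204 ended at 5856142, next to Gm32442-205, with the same signal, while Gm32442-202 and Gm32442-203 ended at 5984683 and 5984547, near Gm32442-201, and held none. The signal was thus in 4 of the 7. For comparison, 30.6% of the 9100 annotated lincRNA transcripts hold AATAAA in their last 50 bases. MSTRG.18577 went on for 189 kb past the end of Gm32442, and the last member ended 982 kb past it.

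The members formed a chain on one strand. Of the 88, 85 lay on the plus strand and held 99.99% of the normalised counts, which are reads divided by a size factor per library. The last base of the last member stood at 6966795, so the chain reached over 1159 kb from its first base. Plus-strand members covered 61.7% of the interval, 88.9% of it before position 6600000 and 27.3% after it. Of the 82 gaps between them, 48 were of 1 kb or less, the median was 793 bp and 7 were above 10 kb. The largest gap measured 60503 bp, just before the last member. The chain was therefore nearly closed over its first part and open in its last.

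In GENCODE M21, 69 members overlapped no gene, and 1, MSTRG.18577, overlapped Gm32442, Gm23752 and Gm48608. Another 15 overlapped Gm48619 on its own strand and 3 overlapped only a pseudogene on the opposite strand. In RefSeq, another set of gene models, compared without regard to strand, MSTRG.18577 also overlapped Gm9548, Gm46333, Gm32576 and Gm32631. MSTRG.18606, with no GENCODE gene, overlapped Gm51970 there. MSTRG.18577 covered Gm32442 entirely. The 15 members within Gm48619 all lay between its exons: none touched any of its 3 exons, and together they covered 3.65% of its span. Members were longer than other features, with a median length of 338 bp against 235 bp over all features. Of the 88, 19 measured 5 kb or more, which is 21.6% against 4.26% of all features. These 19 held 98.3% of the level of the run. MSTRG.18582 lay inside the span of MSTRG.18577 and MSTRG.18674 inside that of MSTRG.18673. The sources used here give neither the assignment of reads in shared bases nor the exons of each feature, so a level per kb refers to the whole span.

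MSTRG.18577 (chromosome 12, 5808193 to 6173771, plus strand, 365579 bp) was the longest feature of the table and the 7th in mean level. It stood at 43791, 40993, 46891, 49670 and 57874 normalised counts in wild-type libraries 1 to 5, a mean of 47844 ± 6485 (SD, n = 5). In the 6 knockout libraries it ranged from 82400 to 142863 with a median of 110529 and a mean of 110762 ± 24701 (SD). The lowest knockout library lay above the highest wild-type library, and the ratio of the means was 2.32. Its log2 difference, on log2 of the normalised count plus 1, was 1.19 with a standard error of 0.15. The authors' deposited table gives it a log2 fold change of 1.21.

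The other 87 members, summed, gave a larger ratio. Their sum was 13741, 17364, 21635, 20920 and 27762 normalised counts in wild-type libraries 1 to 5, and 56028 to 108565 with a median of 81810 in the knockout. The ratio of the means was 4.02. MSTRG.18577 thus held 70.2% of the summed level of the run in wild-type and 57.6% in knockout retina. The other members stood at 0.314 to 0.480 of MSTRG.18577 in wild-type libraries and at 0.680 to 0.773 in knockout libraries, with no overlap. Summed over all 88, the run measured 68128 ± 11408 normalised counts over the 5 wild-type libraries (mean ± SD) and 192387 ± 46498 over the 6 knockout libraries, a ratio of 2.82. In whole retina, a change in the number of cells that make an RNA and a change in the RNA per cell cannot be told apart.

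**Figure D1:**
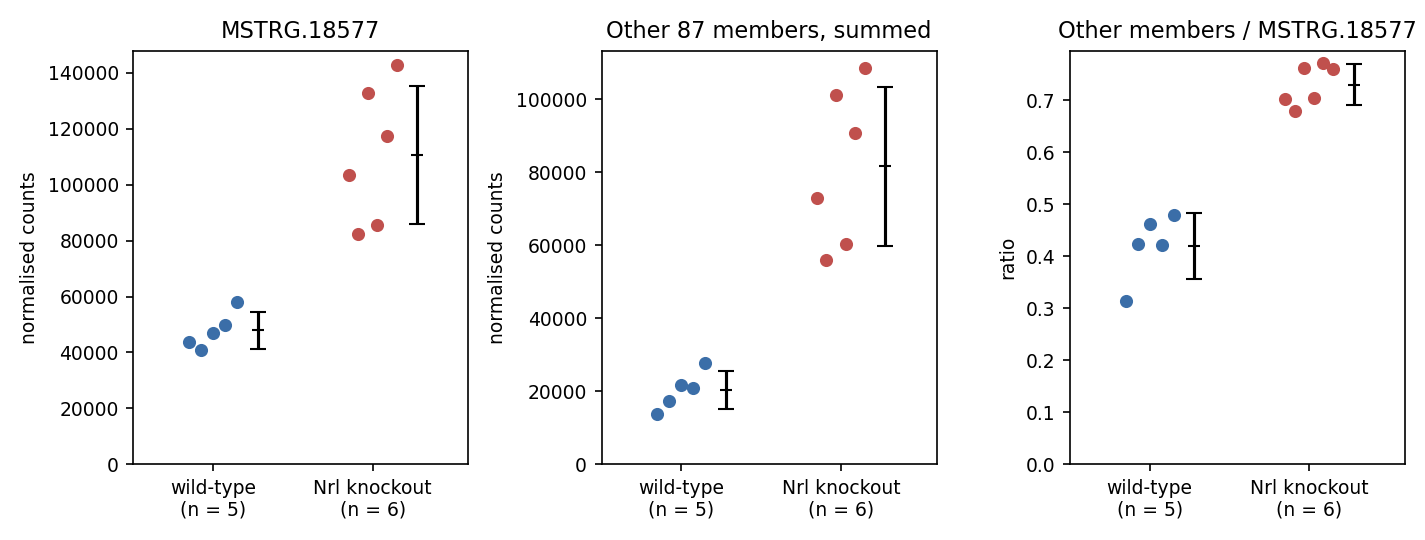
Points are libraries and the bar beside each group is the mean ± SD; the left and middle panels give normalised counts for MSTRG.18577 and for the sum of the other 87 members, and the right panel their ratio. In all 3 panels each knockout library lies above each wild-type library, and the ratio of other members to MSTRG.18577 is 0.314 to 0.480 in wild-type and 0.680 to 0.773 in knockout.

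Of the 88 members, 56 had a mean of at least 5 normalised counts and entered the fit across all features. All 56 were higher in the knockout at an adjusted p below 0.05 (limma, Benjamini-Hochberg over 21395 features), where 28.1% of all tested features were called and 15.6% were called higher. Nothing is read from this count, because the interval was drawn on these differences and a member low in wild-type could pass the filter through the knockout libraries alone. The other 32 members were too low to be tested. Their knockout means were also above their wild-type means, which makes 88 of 88. The groups did not overlap for 70 of the 88 members and for 53 of the 56 tested ones, against 8.28% of all features and 11.1% of the tested ones. The authors' deposited table gave 86 members an adjusted p below 0.05 with a positive fold change, against 10.9% of all features. The log2 differences of the tested members had a median of 2.16 and ran from 1.19 to 3.51, where the median over all tested features was -0.02.

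Many members were close to the limit of detection in wild-type retina. The wild-type mean was below 5 normalised counts for 57 members and below 1 for 25. Between 21 and 24 members were at 0 in each wild-type library, against 0 or 1 in each knockout library. No member was at 0 in all 5 wild-type libraries. At these depths 3 reads are worth 2.28 to 4.11 normalised counts, so the absence of a member from a library was not measurable below that level. This limit covers counting error only.

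The long members carried most of the reads, and they are described here in their order from the start of Gm32442. MSTRG.18590 (6242166 to 6332822, 90657 bp), which lay opposite the pseudogene Gm4927, stood at 3559, 4506, 5544, 5339 and 7217 normalised counts in wild-type libraries 1 to 5. In the knockout it ranged from 13158 to 25398 with a median of 19019, a ratio of means of 3.64. Every knockout library lay above every wild-type library. MSTRG.18599 (6370808 to 6431687, 60880 bp, no annotated gene) was the second most abundant member. It stood at 3416, 4646, 6027, 5429 and 7249 in wild-type libraries 1 to 5 and at 15725 to 31858, median 22991, in the knockout. Its ratio was 4.32 and the groups did not overlap.

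Farther on, MSTRG.18628 (6595595 to 6659666, 64072 bp) stood at 313, 162, 170, 135 and 116 normalised counts in wild-type libraries 1 to 5 and at 440 to 1132, median 817, in the knockout. The groups did not overlap, and wild-type 1 lay well above the other wild-type libraries. MSTRG.18673 (6823034 to 6842251, 19218 bp) stood at 23.3, 17.9, 13.0, 20.3 and 17.1 in wild-type libraries 1 to 5 and at 126 to 321, median 218, in the knockout. Its ratio of means, 11.8, was the highest among the 19 members of 5 kb or more. The last member, MSTRG.18678 (6956393 to 6966795, 10403 bp), was at 8.23, 4.70, 0, 4.84 and 5.04 in wild-type and at 19.7 to 40.6, median 27.6, in the knockout. Again the groups were apart, here on a handful of wild-type reads.

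The remaining members among the 10 of highest mean lay between 6157659 and 6513350. These were MSTRG.18582, MSTRG.18583, MSTRG.18584, MSTRG.18597, MSTRG.18605, MSTRG.18607 and MSTRG.18609. Their wild-type means ran from 648 normalised counts in MSTRG.18607 to 2088 in MSTRG.18584, and their knockout means from 2303 in MSTRG.18582 to 7255 in MSTRG.18584. Their ratios lay between 3.47 in MSTRG.18584 and 4.56 in MSTRG.18607. In each of the 7 every knockout library exceeded every wild-type library. MSTRG.18609 lay opposite the pseudogene Gm3678, and the other 6 overlapped no annotated gene.

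The level per kb varied without a steady fall over the first 593 kb and fell beyond that in both genotypes. MSTRG.18577 stood at 131 normalised counts per kb of span in wild-type and 303 in knockout retina. Between 379 and 423 kb from the first base it swung from 53.7 to 111 to 49.6 to 82.7 in wild-type at MSTRG.18583, MSTRG.18584, MSTRG.18585 and MSTRG.18588, and from 191 to 384 to 174 to 302 in the knockout. At MSTRG.18599, whose middle lay 593 kb from the first base, the values were 87.9 and 380. They were 2.80 and 12.8 at MSTRG.18628, 819 kb from the first base, and 0.439 and 2.71 at MSTRG.18678, 1153 kb from it. MSTRG.18597, just before MSTRG.18599, stood at only 31.3 and 133 per kb. Both genotypes showed these dips and rises. Across the 19 long members, distance and log2 level per kb had a Pearson r of -0.90 in wild-type and -0.86 in knockout. These are descriptions over neighbouring pieces of the same libraries, which share depth and possibly transcripts.

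**Figure D2:**
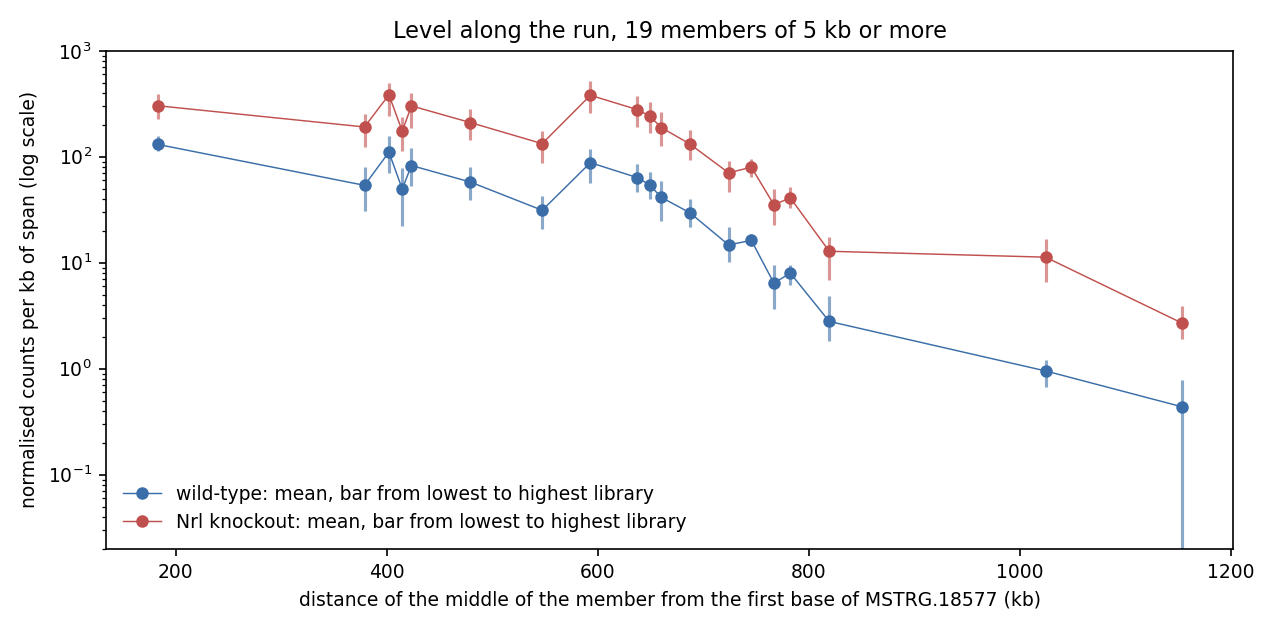
Mean normalised counts per kb of span (log scale) for the 19 members of 5 kb or more against the distance of their middle from the first base of MSTRG.18577, with bars from the lowest to the highest library. Both genotypes swing up and down between 379 and 593 kb, to 87.9 in wild-type and 380 in knockout at 593 kb, and then fall to 0.439 and 2.71; the last wild-type bar reaches the lower axis limit because MSTRG.18678 is at 0 in wild-type 3.

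The ratio between the genotypes rose along the same path. It was 2.32 at MSTRG.18577, between 3.47 and 3.65 in the 5 long members whose middles lay 379 to 479 kb from the first base, and 4.25 and 4.32 at MSTRG.18597 and MSTRG.18599. The next 5 long members, up to MSTRG.18613 at 724 kb, ran from 4.38 to 4.79. Beyond them the ratio was 4.90 at MSTRG.18614, 5.49 at MSTRG.18618, 5.12 at MSTRG.18626, 4.59 at MSTRG.18628, 11.8 at MSTRG.18673 and 6.18 at MSTRG.18678. Distance and log2 ratio had a Pearson r of 0.88 and a Spearman rho of 0.97 across the 19. Without MSTRG.18673 and MSTRG.18678, the 2 farthest members, Pearson r was 0.95 over 17. Without MSTRG.18577 it was 0.84 over 18. No test is given, because the ratios come from the contrast on which the interval was drawn.

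The same order appeared up to 500 kb into the interval when all plus-strand members except MSTRG.18577 were summed by windows of 100 kb. The windows ran from the start of the interval, and each member was placed by its middle. The ratio was 3.52 in the first window, 3.64 in the next, then 4.31, 4.46 and 4.93. It was 6.97 between 500 and 600 kb into the interval and 11.6 between 600 and 700 kb. The former window held 28 members of 8542 bp together, with a wild-type sum of 37.7. In the latter, MSTRG.18673 alone made up 18.3 of the sum in wild-type and 217 in knockout retina. Features low in wild-type could be listed through the knockout libraries alone, so these 2 ratios are not placed in the order. The sums behind the ratios rose over the first 3 windows, from 4524 to 5291 to 6307 normalised counts in wild-type and from 15939 to 19252 to 27201 in knockout retina. They were 3282 and 14643 in the next window and 24.3 and 281 in the window from 600 to 700 kb. The last windows held 2 and 1 members, with wild-type sums of 1.21 and 4.56, too few reads to place them in the order.

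**Figure D3:**
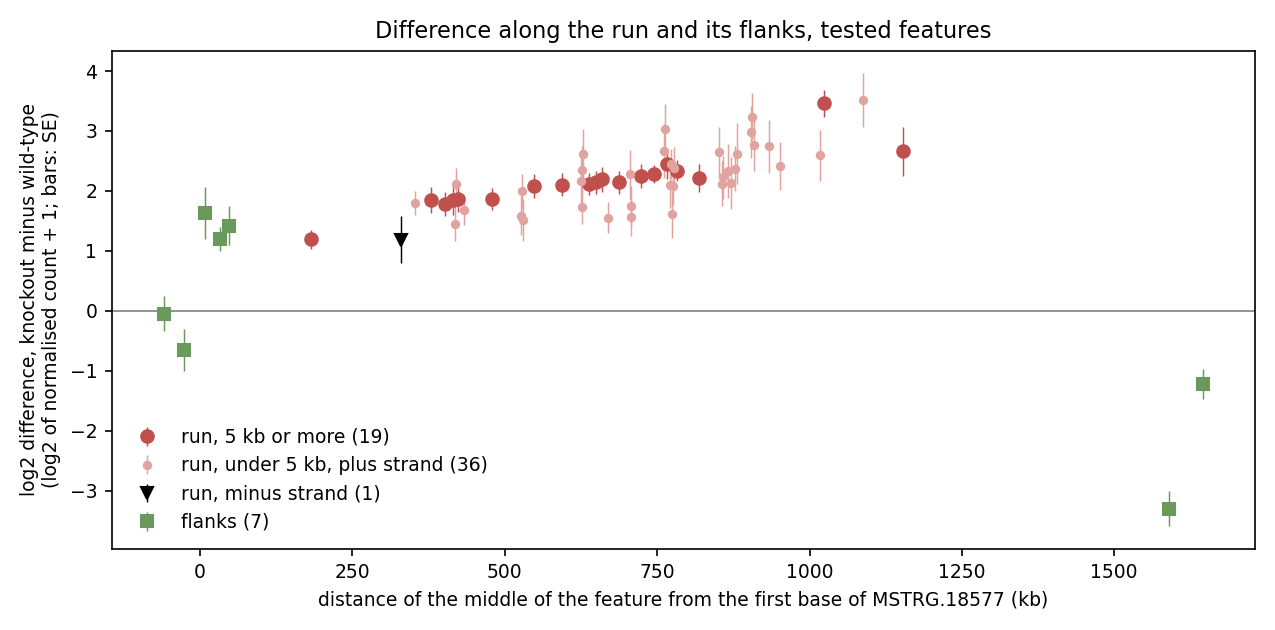
Log2 difference, knockout minus wild-type, with standard errors, for the 56 tested members and 7 tested flank features against the distance of their middle from the first base of MSTRG.18577. Members range from 1.19 to 3.51, with the lowest values near the start of the run; the 3 higher flank features lie just after the first base and the 2 lower ones far beyond the last member.

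Libraries of 1 genotype differed in how far their reads reached. For each library a line was fitted to log2 of the normalised count plus 1 per kb over the 19 long members, and its slope gave the distance over which the level dropped by 1 log2 unit, called the fall distance here. That distance was 136, 117, 97.1, 110 and 105 kb in wild-type libraries 1 to 5, and 119 to 160 kb with a median of 138 kb in the knockout. The groups overlapped, with means of 113 ± 14.6 kb (SD, n = 5) and 139 ± 16.9 kb (SD, n = 6). Without MSTRG.18673 and MSTRG.18678 the means were longer, 143 kb and 185 kb, so the distance depends on the far members. The share of the summed level held by members with their middle beyond 6600000, 792 kb from the first base, was 0.708%, 0.361%, 0.344%, 0.280% and 0.214% in wild-type libraries 1 to 5. In the knockout it was 0.454% to 1.16% with a median of 0.775%, and the groups overlapped.

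The far share is divided by the run sum, so the 2 are not independent of each other. In wild-type the far share was highest in wild-type 1, whose run sum of 57531 was the lowest, and lowest in wild-type 5, whose run sum of 85637 was the highest. Among knockout libraries, 1, 2 and 4 had far shares of 1.03%, 1.16% and 0.968% and run sums of 176526, 138427 and 145735. Knockout 3, 5 and 6 had far shares of 0.539%, 0.454% and 0.581% and run sums of 234054, 208151 and 251428. The far level itself, not divided, was 407, 211, 236, 197 and 184 normalised counts in wild-type libraries 1 to 5 and 1814, 1606, 1262, 1411, 946 and 1462 in knockout libraries 1 to 6. It was highest in wild-type 1 and in knockout 1 and 2, while knockout 4 lay just below knockout 6. The libraries also differed from one another across all tested features. The first principal component of their deviations from the group means took 29.0% of the variance within groups, with wild-type 1 (0.61), knockout 2 (0.37) and knockout 1 (0.33) at one end and knockout 5 (-0.39) and wild-type 5 (-0.33) at the other. The labels give no date, batch or RNA quality, and the part of this axis in the reach of the run was not tested. Without wild-type 1, knockout 1 and knockout 2, the ratio of the run sums was 2.96 and that of the fall distances 1.21, against 2.82 and 1.23 with all libraries.

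**Figure D4:**
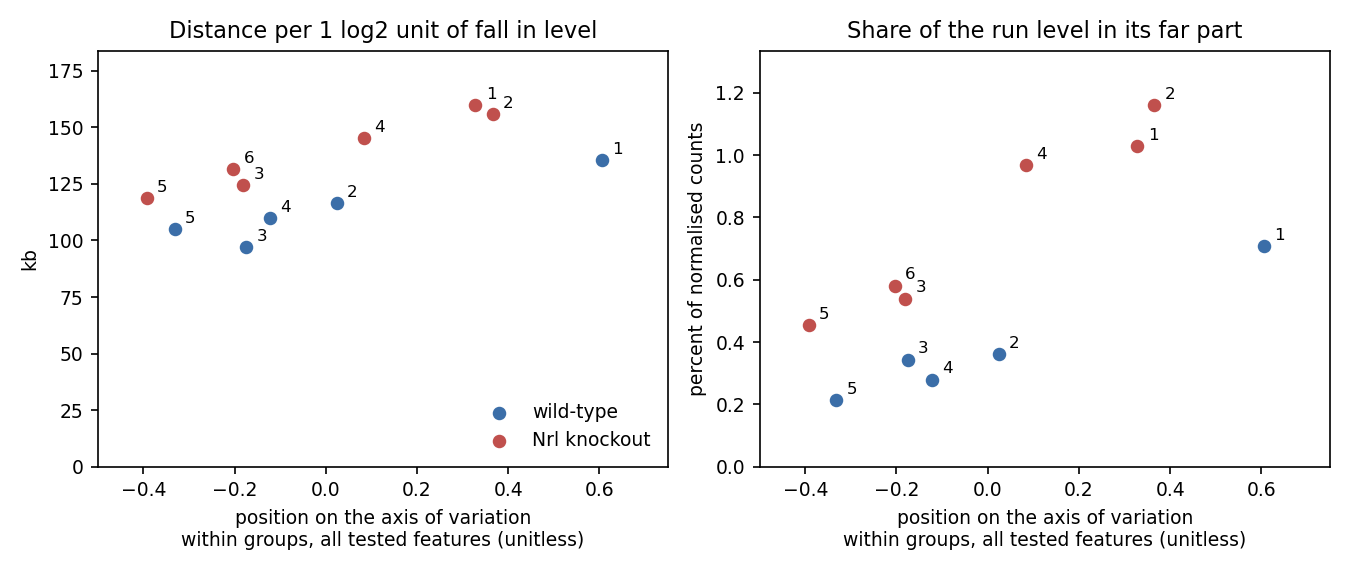
Each point is a library, numbered by replicate, placed by its position on the main axis of variation within groups over all tested features (unitless); the left panel shows the fall distance in kb and the right panel the percent of the run level held by members with their middle more than 792 kb from the first base. In each genotype the libraries to the right, wild-type 1 and knockout 1 and 2, have the highest values, up to 136 kb and 0.708% in wild-type and 160 kb and 1.16% in knockout.

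Reads on the minus strand were few. The 3 minus-strand members, MSTRG.18581, MSTRG.18598 and MSTRG.18600, measured 138 to 153 bp and each lay beneath a long plus-strand member. Together they held 4.11 to 10.1 normalised counts in the wild-type and 17.2 to 43.0 in the knockout libraries. MSTRG.18581, the only one that was tested, was at 2.74, 3.76, 1.86, 5.80 and 7.06 in wild-type and at 5.05 to 23.4, median 8.74, in the knockout, and its groups overlapped. Its level per kb was 22.7% of that of MSTRG.18577 in wild-type and 26.2% in knockout retina. MSTRG.18600 was at 1.37, 1.88, 4.64, 1.93 and 1.01 in wild-type and at 3.03 to 12.4, median 5.56, in the knockout, also with overlap. MSTRG.18598 was at 0, 0.941, 0.928, 1.93 and 2.02 in wild-type and at 4.16 to 9.76, median 7.96, in the knockout, and its groups were apart. Its level per kb was 27.0% of that of MSTRG.18597 in wild-type and 40.6% in knockout retina, and that of MSTRG.18600 was 16.1% and 11.3% of MSTRG.18599. Since no source used here gives the use of strand in counting, reads of the minus strand and misassigned reads of the plus strand cannot be told apart.

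At the edges, the rule took in a member that crossed the start of the interval as well as members that lay inside it. MSTRG.18577 crossed the start of the interval and began 330 kb before it, and MSTRG.18581 was the first member to start inside, with a log2 difference of 1.19. The last members inside were MSTRG.18677 and MSTRG.18678, with log2 differences of 3.51 and 2.66. MSTRG.18677 (276 bp) was at 4.11, 0, 0, 0 and 1.01 normalised counts in wild-type and at 9.10 to 23.9, median 19.9, in the knockout. Outside the interval, the nearest features before were MSTRG.18580 (1.42) and MSTRG.18579 (1.19), which ended at 5855666 and 5846456. The nearest after were MSTRG.18680, which began at 7313646 and was too low to be tested, and MSTRG.18682 (-3.30), which began at 7385965. None of them adjoined the interval.

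Of the 9 flank features, 7 were tested, and the 3 that rose lay inside the span of MSTRG.18577, where 15.6% of all tested features were called higher. MSTRG.18579 (5834453 to 5846456, plus strand, over Gm32442) stood at 1600, 2003, 2475, 2949 and 3336 normalised counts in wild-type libraries 1 to 5. In the knockout it ranged from 3302 to 7182 with a median of 5999, a log2 difference of 1.19 ± 0.20 (SE, limma adjusted p = 2.91e-05). The groups touched, since knockout 2 was lower than wild-type 5. The minus-strand features MSTRG.18578 and MSTRG.18580, opposite Gm32442, rose by 1.64 (adjusted p = 0.0046) and 1.42 (adjusted p = 0.0010) on the log2 scale in the same limma fit. These 3 features lay before the start of the interval, so higher features were not limited to it. MSTRG.18577 has 1 value over its whole span and does not show where in that span the difference began.

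Before that base the features did not pass the test. MSTRG.18573 and MSTRG.18574, on the plus strand between 5748380 and 5785748, differed by -0.05 and -0.65 on the log2 scale (limma adjusted p = 0.93 and 0.19). MSTRG.18573 was at 21.9, 11.3, 14.8, 7.74 and 17.1 normalised counts in wild-type and at 8.30 to 17.2, median 14.5, in the knockout, with overlapping groups. These 2 features ended 59.5 kb and 22.4 kb before the first base of the run. The RefSeq gene Gm9548, compared without regard to strand, overlapped both of them and also MSTRG.18577.

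After the run, both tested features fell. MSTRG.18682 (7385965 to 7411057, minus strand, no annotated gene) was at 87.8, 61.2, 59.4, 48.4 and 52.5 in wild-type libraries 1 to 5 and at 3.32 to 11.4, median 4.48, in the knockout. Its log2 difference was -3.30 ± 0.29 (SE, limma adjusted p = 6.75e-10), where 12.6% of all tested features were called lower. MSTRG.18683 (7453072 to 7454023, minus strand) fell from 64.8 ± 18.1 to 27.7 ± 8.94 (SD, n = 5 and 6), a log2 difference of -1.22 (limma adjusted p = 3.75e-04). In both, every knockout library lay below every wild-type library. The edges of the interval were drawn from the same contrast, so these flank values are a description rather than a separate result. Both features lay on the strand opposite to most of the run. The only plus-strand feature in this flank, MSTRG.18680, was too low to be tested, so the values do not show where the run ended.

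Features at coding genes around the run were called in both directions, more of them lower than higher. Of 29 neighbouring coding genes listed for comparison, 12 had a feature in the table, and 19 features at 11 of them were tested. Of these, 2 rose, 5 fell and 12 did not pass. Over all tested features 28.1% were called, 15.6% higher and 12.6% lower. The other 17 genes gave no feature, 1 of them because its symbol was not found in the annotation. All 27 features at these genes lay on the strand opposite to the gene. The median log2 difference was -0.24, against -0.02 over all tested features. Since the use of strand in counting is not given, reads of the opposite strand and reads of the gene itself cannot be told apart there.

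The 2 features over Klhl29 went opposite ways. MSTRG.18548 (5192448 to 5195368) was at 241, 231, 219, 195 and 203 normalised counts in wild-type libraries 1 to 5 and fell to 17.3 to 24.9 in the knockout, a log2 difference of -3.29 (limma adjusted p = 1.16e-13). MSTRG.18553 (5337631 to 5338935) was at 23.3, 19.8, 16.7, 13.5 and 13.1 in wild-type and rose to 53.7 to 111 in the knockout, a log2 difference of 2.08 (limma adjusted p = 5.48e-08). The groups did not overlap in either. In the authors' deposited table the chromatin domain that holds the run lists Klhl29 as its 1 mRNA with a higher level and none with a lower one.

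Farther away, MSTRG.18544, opposite Atad2b, a gene for a bromodomain ATPase, fell from 252 ± 40.3 to 19.3 ± 3.35 (SD, n = 5 and 6), a log2 difference of -3.64 (limma adjusted p = 4.00e-14). The 3 tested features opposite Itsn2, which encodes an endocytic scaffold protein, fell, with MSTRG.18512 at a log2 difference of -1.43 (limma adjusted p = 1.41e-04). Opposite Dnmt3a, a DNA methyltransferase gene, MSTRG.18446 rose by 1.69 (limma adjusted p = 0.0022), while the most abundant feature there, MSTRG.18442, differed by -0.43 (limma adjusted p = 0.14). The most abundant features at Kif3c, Mfsd2b, Dtnb, Wdcp, Rab10 and Fkbp1b did not pass the test, with log2 differences from -0.56 at Wdcp to 0.85 at Fkbp1b. Within the same chromatin domain of the authors' deposited table, 38 features were not members of the run. Of the 25 tested, 7 rose, 6 fell and 12 did not pass, where 15.6% of all tested features were called higher and 12.6% lower. Flank features inside the span of MSTRG.18577, such as MSTRG.18579, are not members and were not set apart in this count.

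The run was set beside other runs found by one rule, namely called features of 1 direction on 1 strand with gaps of at most 50 kb. Under it the run reached from 5808193 to 6760193, spanned 952 kb with 52 called features, and ranked first of 3357 runs by span and by number of features. The next by span were a minus-strand run of higher features on chromosome 12 (68210825 to 68603778, 393 kb, 36 features, ratio of summed means 8.72), a minus-strand run of lower features on chromosome 11 (37511926 to 37886624, 375 kb, ratio 0.677) and a plus-strand run of lower features on chromosome 7 (40130579 to 40492003, 361 kb, ratio 0.598). The run near Klhl29 thus differed from these in length, while its ratio of 2.80 was below that of the chromosome 12 run on the minus strand. The ranking uses the same contrast and is a description.

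The genotypes also differed in the features at marker genes of retinal cell types, as is known for this knockout. Over all tested features 15.6% were called higher and 12.6% lower. At rod genes, 32 of 45 tested features fell and 4 rose, and their summed level was 4137 to 6935 normalised counts in wild-type and 796 to 1445 in knockout libraries. At cone genes, 18 of 29 rose and 2 fell, with sums of 408 to 440 and 1307 to 2030. At bipolar genes 5 of 19 rose and 1 fell, with sums of 692 to 1075 and 890 to 1477. Few features lay at other markers: 1 of 2 fell at Mueller glia genes, 1 of 5 at amacrine and horizontal genes, 0 of 1 at ganglion genes and 1 of 10 at pigment epithelium genes. Microglia genes had 1 feature, at 0.941 to 5.57 in wild-type and 0 to 8.79 in the knockout, and vascular genes had none. The part of these cell types in the level of the run was not tested.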

How the data were processed

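RNA of 11 retina samples (5 wild-type, 6 Nrl knock-out) was sequenced after removal of polyadenylated RNA, and 1 table of non-coding features was deposited. Per the file headers, its values are counts divided by DESeq2 size factors, called normalised counts here, a signal that the authors computed. The deposited table also holds the authors' log2 fold change with its standard error, their test score and their p-value and adjusted p-value. Coordinates are mm10 per the file name, with starts counted from 0 (209 starts matched an exon start after adding 1 base, 22 without), and are given here from 1. TopHat2 2.0.10, Cufflinks 2.2.1 and Cuffdiff are named in the submitters' processing notes, with mm9 and mm10. No source used here gives the assembler, the counter or the use of strand in counting. The lowest mean in the table is 2.00, so features low in both groups were not listed, and a low feature could enter through 1 group.

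Of 36180 lines, 83 repeated a feature and were dropped. Log2 of the normalised count plus 1 was fitted with limma 3.58.1 (R 4.3.3, trend and robust) over the 21395 features with a mean of at least 5, with Benjamini-Hochberg adjustment and a threshold of 0.05, and member rows were then taken out. On simulated counts, the limma comparison of knockout against wild-type recovered 50 of 66 features changed 4-fold and 22 of 74 changed 2-fold. It made 1 false call among 20577 features. Every simulated feature had the same dispersion, and a far smaller share was changed than the 28.1% called in the libraries. The recovery and the false call therefore do not measure the sensitivity or error of the main fit. Values of all 11 libraries were whole multiples of 1 read within 0.001, and the recovered reads of 9 of them were fitted with edgeR 4.0.16 and DESeq2 1.42.0 as alternatives. In wild-type 5 and knockout 2, 1 read was worth close to 1 normalised count and their reads were not used in those fits. These 2 libraries had the highest run sum in wild-type (85637) and the lowest in the knockout (138427). The median log2 difference of the tested members was 2.41 with DESeq2 and 2.43 with edgeR, against 2.16 in the main fit.

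The interval, the members and all gene lists were chosen with earlier results of these data known. Features named are the 10 members of highest mean, the 2 members and 2 outside features nearest each edge, the 3 longest members, the minus-strand members, the 3 flank features of highest mean per side, the most abundant tested feature of each neighbouring gene (at most 10) and the 3 longest other runs. MSTRG.18673, MSTRG.18446, MSTRG.18553 and the other long members named in the order along the run were added after their values were seen, as were the fall distance and the leaving out of wild-type 1, knockout 1 and knockout 2. Gene models and transcript sequences are from GENCODE M21 (GRCm38), and RefSeq genes were used only where named.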

Additional observations from a re-analysis of the deposited data

Results flagged for a closer look

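In 74 groups of 5 or 6 libraries, covering the named features and the summed quantities of the run, 4 held a library far from the others, where chance flags about 1 in 20. Wild-type 1 was the far library in 3 of them. It was the highest at MSTRG.18628, with 313 normalised counts against 116 to 170 in the other wild-type libraries, at MSTRG.18677, with 4.11 against 0 to 1.01, and at MSTRG.18442 opposite Dnmt3a, with 94.6 against 51.3 to 61.3. Wild-type 3 was the highest at the minus-strand member MSTRG.18600, with 4.64 against 1.01 to 1.93. At MSTRG.18677 and MSTRG.18600 the distance amounts to a few reads.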

How the results depend on the processing

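The direction of each tested member was the same under every alternative run: another pseudocount, no filter or a stricter one on the mean, TMM scaling, edgeR, DESeq2, the replicate block, each library left out, and wild-type 1, knockout 1 and knockout 2 left out together. Requiring a mean of 20 left 3350 of 8266 features called, 26 of 26 members, 3 of 3 flank features and 3 of 9 features at neighbouring genes, against 6022, 56, 5 and 7; fewer features were tested. With no filter 87 of 88 members were called. The sum of the run rested on MSTRG.18577: without that member, which is also the 1 member that reaches out of the interval, the ratio was 4.02 in place of 2.82. Deviations of same-numbered libraries correlated at 0.29, 0.0013, 0.12, 0.051 and 0.27, all positive. Those of differently numbered libraries ran from -0.39 to 0.34, so these values do not settle whether the replicate numbers pair the libraries. The replicate block, which leaves knockout 6 without a partner and so without weight, gave 6916 calls over all features, 55 of 56 members, 5 flank features and 7 features at neighbouring genes. MSTRG.18581 was the member that lost its call there, with a log2 difference of 0.96 (limma adjusted p = 0.055), as it did without knockout 1, knockout 6 or wild-type 3. Leaving out each library in turn gave 5522 to 6269 calls over all features, 54 to 58 members, 5 flank features and 5 to 8 features at neighbouring genes. The ratio of run sums was then 2.65 to 3.02 and that of flank sums 2.02 to 2.37. The flank sum rested on MSTRG.18579, inside the span of MSTRG.18577, with means of 2473 in wild-type and 5670 in knockout libraries. No tested flank feature outside that span was called higher. The ratio of other members to MSTRG.18577 between the genotypes was 1.74, and 1.64 without wild-type 1. Members beyond 6600000 rest on few reads in wild-type retina.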
